A study of Mus musculus with 18 samples.

Results

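Regulatory T cells (Tregs) that had first been marked in newborn mice were compared with Tregs marked in adult mice, both taken from the spleen at the same age. The comparison rests on 6 of the 18 arrays of the series, 3 per group, and covers every gene with a single annotated symbol. Of 19752 such genes on the array, 10350 were bright enough to be tested. The mice were NOD females aged 60 days, per the labels, which carry a Foxp3-eGFP-Cre-ERT2 allele, a tamoxifen-activated recombinase made only where Foxp3 is expressed, and a Rosa26-YFP reporter that the recombinase switches on for good. Perinate-tagged cells (GFP+YFP+) came from mice given 4 injections of tamoxifen between days 0 and 10 of life, and are replicates 2, 4 and 5. Adult-tagged cells (GFP+YFP+) came from mice given 4 injections between days 35 and 45, and are replicates 1, 2 and 3. All groups of the spleen share both alleles and tamoxifen, so no spleen array shows cells without them. The YFP mark follows any cell that expressed Foxp3 during the injections and its descendants, so the adult mark can also fall on cells that arose earlier, and the time between last injection and harvest differed between the groups. Untagged GFP+YFP- cells of mice given the same treatments (3 arrays each) served to estimate the spread and for comparison. Thymic Tregs of male mice, aged 4 days or 5 weeks (3 arrays each), came from other animals. Whether a replicate is a mouse or a pool is not given in the sources used here, and the p-values therefore reflect only how these samples spread.

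Tregs are CD4+ T cells that hold immune responses in check and depend on the transcription factor Foxp3. Those made around birth persist in the adult and are known for their part in preventing autoimmunity. In lymphoid organs Tregs range from resting cells, which recirculate and keep genes such as Bach2 and Foxp1 on, to activated effector cells, which divide, secrete and move into tissue. That genes of effector function, cell division and the interferon response differ between these groups was known from an earlier account of these arrays, so the text below turns on the other genes.

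The identity of the sorted cells was read from their defining markers. On the log2 scale, in which all levels and differences below are given, Cd4 lay between 11.79 and 12.22 on the 6 tagged arrays and Cd3e between 12.87 and 13.18. Foxp3 read 11.98, 11.96 and 11.90 on perinate-tagged replicates 2, 4 and 5 and 12.35, 12.28 and 12.13 on adult-tagged replicates 1, 2 and 3, so the groups did not overlap. Its difference of -0.31 missed the threshold (adjusted p = 0.0877 by limma), but passed after quantile normalization (-0.36, adjusted p = 0.043) and median centring (-0.52, adjusted p = 0.00922). Il2ra, the high-affinity chain of the IL-2 receptor, fell by 0.39 in perinate-tagged cells (adjusted p = 0.0416) and is among the steady genes defined below. Perinate-tagged replicate 2 went against its label. It read 8.38 for Xist, which coats and silences an X chromosome in females, where the other 5 tagged arrays read 11.86 to 12.41, and 9.79 for the Y-linked Eif2s3y, where they read 4.00 to 4.68. Results are therefore given with and without this array. The spread of an array's values, its interquartile range, also moved with the groups. It was 2.94, 3.07 and 3.12 on the perinate-tagged arrays and 2.49, 2.88 and 2.59 on the adult-tagged ones.

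At an adjusted p below 0.05 (limma, Benjamini-Hochberg over all genes tested), 1658 genes rose and 362 fell in perinate-tagged relative to adult-tagged cells, 16.0% and 3.50% of those tested. The median difference over all genes was 0.12, and it was -0.04 after quantile normalization and -0.09 after centring each array on its median, which turned the split of calls to 1065 higher and 896 lower and to 913 higher and 1368 lower. For this reason a gene is called steady here only when it passed in the same direction in 4 settings, the full data, the data without perinate-tagged replicate 2, quantile normalization and median centring. Steady genes numbered 888 higher (8.58%) and 265 lower (2.56%). Of these, 342 higher genes and 20 lower ones differed by 1 or more, that is 2-fold. The gene lists of effector, division, replication, interferon and immediate early genes held 210 of the higher and 12 of the lower steady genes, which leaves 678 higher and 253 lower genes outside them. In bulk samples such as these, fewer cells of a kind and less RNA per cell cannot be told apart.

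Leaving out perinate-tagged replicate 2 kept 1382 of the 1658 higher calls and 282 of the 362 lower calls. It ended 276 and 80 calls and added 195 and 119 among the genes of the full test. In 528 of the 888 steady higher genes replicate 2 was the perinate-tagged array nearest to the adult-tagged ones, and in 202 of the 265 steady lower genes likewise. The calls that came only without it were led by interferon-induced genes. Of 57 tested genes of the interferon list, 18 passed with the array and 45 without it. Ifit3, which restrains viral RNA translation, read 8.16 on replicate 2 against 11.66 and 11.56 on replicates 4 and 5, with 8.66, 8.95 and 9.02 on the adult-tagged arrays. Replicate 2 thus lay below all adult-tagged arrays while the other perinate-tagged arrays lay far above them. The difference of Ifit3 was 1.58 (adjusted p = 0.124) with the array and 2.73 (adjusted p = 0.000719) without it. Mx2, a GTPase against viruses, moved the same way, at 5.63 against 9.03 and 8.96, with 6.24, 6.33 and 6.31 in adult-tagged cells. Oas2, Oasl2, Ifit1 and Slfn5 completed the 6 largest such genes, with differences of 1.55 to 2.02 without the array. Calls that were present only with it included Prdm1, which encodes the effector regulator Blimp1, at a difference of 1.23 in the full data (adjusted p = 0.0494) and 1.22 without it (adjusted p = 0.0881), Ifitm2, Zbed3, Cnn3, Nedd4l and Bcl2a1c. For Prdm1 the size hardly moved without the array. With the array it also missed the threshold after quantile normalization (1.09, adjusted p = 0.0907 by limma) and median centring (1.02, adjusted p = 0.0918). Untagged cells read 7.32 and 7.88 for Prdm1 on replicates 3 and between 9.08 and 9.30 on replicates 4 and 5.

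**Figure D1:**
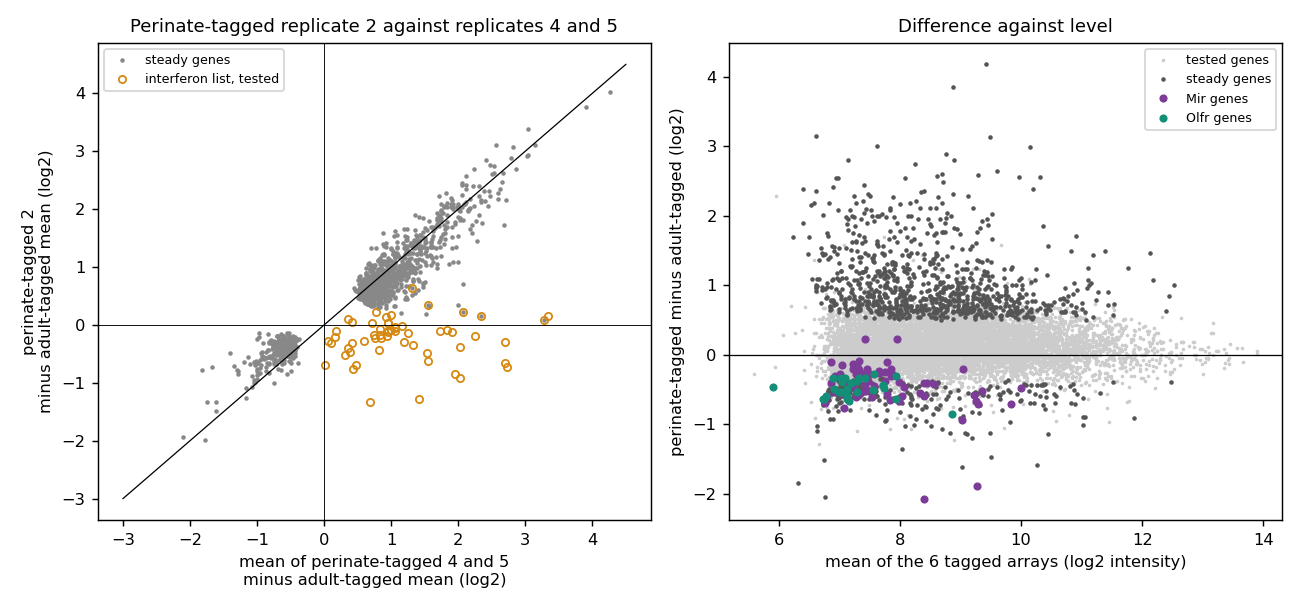
Left, each steady gene (grey) and each tested interferon gene (orange rings) by the difference from the adult-tagged mean of perinate-tagged replicates 4 and 5 (x) and of replicate 2 (y), both log2, with the line of equality. Right, difference between the tagged groups against mean level (both log2) for all tested genes, with the 888 higher and 265 lower steady genes in dark grey and microRNA (Mir) and olfactory receptor (Olfr) genes in colour. Steady genes lie along the line, interferon genes lie below it, and most Mir and all Olfr points lie below 0.

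The 15 largest rises outside the reported lists came from several directions of cell biology. In what follows, 6 values in a row are perinate-tagged replicates 2, 4 and 5 and then adult-tagged replicates 1, 2 and 3. Mastl, the kinase that keeps cells in mitosis, read 7.44, 7.71 and 7.65 against 5.05, 5.47 and 5.10. Its difference was 2.39 (SE 0.25, adjusted p = 1.72e-05). The adult-tagged mean lay under the filter of the test (7.05) in 9 of the 15 genes, Mastl among them, and the perinate-tagged mean did in 4 of the 15 largest falls. Of all genes tested, 178 reached this filter through the perinate-tagged mean alone and 245 through the adult-tagged mean alone. Such genes had to differ, so their calls support nothing by themselves. The 178 include Mastl, Dnase1l3, Trpm6, Hrh4, Mx2 and, below, Gpr15, Il4, Fut7, Nid2, Muc20 and Gzma. The 245 include Slc16a5, Fgf13 and Tmem176a. Spag5 (2.09), which holds chromosomes at the spindle, Cip2a (2.00), an inhibitor of the phosphatase PP2A, and the linker histone H1f5 (2.12) are genes of dividing cells as well, which the reported lists did not hold. Of 27 tested histone genes, a family counted after values were seen, 20 passed higher (74.1%, against 16.0% of all genes) and 0 lower. Of the 27, 15 were steady higher (55.6%, against 8.58% of all genes), and 7 of these also passed with the interquartile range in the model.

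Pparg, the lipid-sensing nuclear receptor that marks Tregs of fat tissue, read 9.17, 9.10 and 9.11 against 7.23, 6.95 and 7.21. All perinate-tagged values lay about 2 units above all adult-tagged ones, with a difference of 2.00 (SE 0.32, adjusted p = 0.000569). Untagged cells read 7.14 and 6.72 for Pparg on replicates 3 and between 8.02 and 8.34 on replicates 4 and 5. Dnase1l3, a secreted nuclease that digests DNA on the surface of cell fragments, read 7.92, 7.47 and 7.62 against 5.42, 5.36 and 5.71, a difference of 2.18 (SE 0.25, adjusted p = 3.86e-05). Cxcl10, a chemokine that draws Cxcr3-bearing T cells, differed by 2.36 (SE 0.65, adjusted p = 0.0211), from an adult-tagged mean of 7.21. Untagged cells differed among themselves, with Cxcl10 at 7.92 and 8.41 on both replicates 3 and between 10.28 and 11.07 on replicates 4 and 5.

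Gna15, a G protein alpha subunit of blood cells, read 9.66, 9.59 and 9.70 against 7.38, 7.81 and 7.40, a difference of 2.12 (SE 0.28, adjusted p = 0.000114). Ccrl2, a receptor that binds chemerin without signalling, differed by 2.00 and Hrh4, the histamine receptor of blood cells, by 1.90. Trpm6, a magnesium channel with a kinase domain, read 7.99, 8.67 and 8.96 against 6.52, 6.56 and 6.53, and untagged cells lay at 6.70 and 6.68, so that only the perinate-tagged arrays were high. The others were Actg2 (2.11), a smooth muscle actin, Ryk (1.98), a receptor for Wnt ligands, Car5b (1.97), a mitochondrial carbonic anhydrase, and Ttc39c (2.08). All 15 had groups that did not overlap, as the choice required, which held for 33.2% of all tested genes in this direction and 12.7% in the other. Of the 15, 11 also passed with the arrays' interquartile range in the model and 14 when any single tagged array was left out (Cxcl10 did not). Both untagged replicates 3 lay below untagged replicates 4 and 5 in all of the 15 but H1f5, Actg2 and Trpm6. Gna15 read 7.53 and 8.09 on untagged replicates 3 against 8.67 to 8.84 on replicates 4 and 5. Ttc39c read 7.07 and 7.05 against 8.55 to 9.18, and Ryk 7.02 and 6.62 against 7.52 to 8.34.

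**Figure D2:**
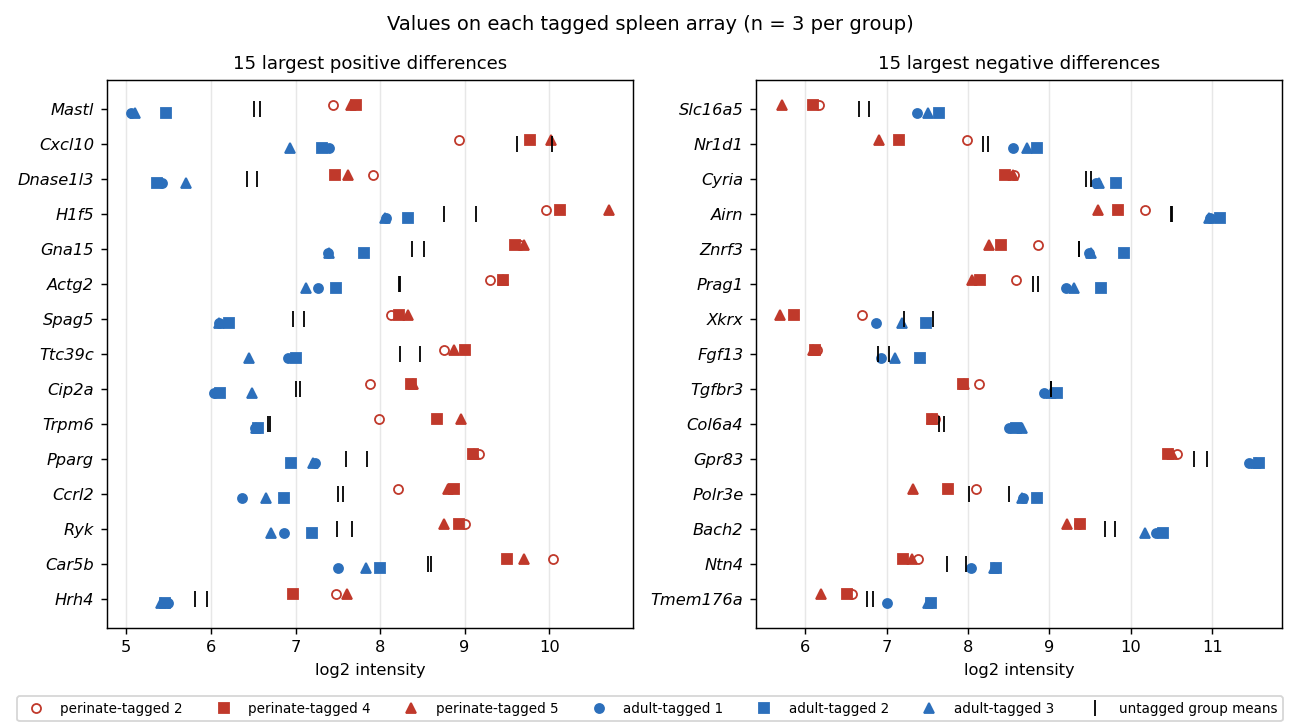
Log2 intensity (x) of the 15 genes with the largest positive (left) and negative (right) steady differences outside the reported lists, on each perinate-tagged array (red, replicate 2 open) and each adult-tagged array (blue), with the 2 untagged group means as black ticks. Red and blue points do not overlap in any row, and for Tgfbr3 and Trpm6 the ticks lie at or near the blue points.

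The falls were smaller. Nr1d1, the repressor Rev-erb alpha of the circadian clock, read 7.99, 7.15 and 6.91 against 8.55, 8.85 and 8.73, a difference of -1.36 (SE 0.27, adjusted p = 0.00311). Its relative Nr1d2, named after its value was seen, fell by 0.63 (adjusted p = 0.0138). Gpr83, a neuropeptide receptor known as a marker of resting Tregs, read 10.57, 10.46 and 10.51 against 11.45, 11.57 and 11.54, a difference of -1.01 (SE 0.25, adjusted p = 0.0127). Bach2, which keeps T cells from effector fates, read 9.37, 9.38 and 9.22 against 10.31, 10.40 and 10.17, a difference of -0.97 (SE 0.22, adjusted p = 0.00628). Tgfbr3, a co-receptor for TGF-beta, read 8.13, 7.94 and 7.95 against 8.94, 9.10 and 9.02, a difference of -1.02 (SE 0.15, adjusted p = 0.000341), and both untagged means were 9.02. Znrf3, a ubiquitin ligase that removes Wnt receptors, fell by 1.13 (adjusted p = 0.000219) and Cyria, a brake on Rac1 and the actin network, by 1.14 (adjusted p = 0.000616). Slc16a5, a transporter of the lactate carrier family, had the largest fall of the 15, 1.52 (adjusted p = 0.0147), and lay at 6.17, 6.10 and 5.71 in perinate-tagged cells. The others of the 15 were Airn, Prag1, Xkrx, Fgf13, Col6a4, Polr3e, Ntn4 and Tmem176a. Some falls also split the untagged cells. Gpr83 read 11.54 and 11.40 on untagged replicates 3 and between 10.31 and 10.65 on replicates 4 and 5. Slc16a5 read 7.78 and 7.62 against 5.99 to 6.45, and Bach2 10.41 and 9.97 against 9.37 to 9.72. Their differences of differences, described below, did not pass (adjusted p = 0.0803, 0.177 and 0.0525 by limma). Znrf3 lay between 9.29 and 9.47 on all 6 untagged arrays.

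Fewer of the falls than of the rises passed once the spread of each array was in the model, 49 of 265 steady falls and 294 of 888 steady rises. Steady falls had a median level of 7.99, against 8.56 for all tested genes and 9.02 for those 49. Of 1027 olfactory receptor genes on the array, which T cells are not known to use, 27 were bright enough to test, 5 of them through the adult-tagged mean alone. Of these 27, 0 rose and 7 fell. Of 288 microRNA genes, a family counted after values were seen, 62 were tested, 5 of them through the adult-tagged mean alone, and 0 rose and 19 fell. Over all genes tested 3.50% fell, but members that enter through the group where they are high had to differ, so these counts support nothing by themselves. Without any filter the median difference was -0.33 over the 1027 olfactory receptor genes, -0.18 over the 288 microRNA genes and -0.07 over all 19752 genes. With the interquartile range in the model 0 of either family were steady, and the part of array spread in the other falls was not tested beyond that model. The 49 included, named after their values were seen, St8sia6 (-0.89), a sialyltransferase, the histone methyltransferases Kmt2a (-0.62) and Kmt2d (-0.61), Tsc22d3 (-0.57), the glucocorticoid-induced Gilz, and Prkce (-0.83), a protein kinase C. Among the 15 largest falls, 6 passed with it, Cyria, Airn, Znrf3, Tgfbr3, Ntn4 and Tmem176a. In the 31 gene lists described below, the largest numbers of steady rises that did were 7 in the actin list, 5 in the G protein coupled receptor list and 4 in the amino acid list.

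Of the 31 gene lists described here, the proteasome list had the largest share of calls. Over the lists, 28 medians lay above 0, and 14 changed sign under median centring. The proteasome breaks down proteins marked with ubiquitin, through a barrel of alpha (Psma) and beta (Psmb) subunits capped by ATPases (Psmc) and other regulators (Psmd). Of 39 tested members 23 rose (59.0%, against 16.0% of all genes), 0 fell and 12 were steady, with a median difference of 0.50. The calls spread over the particle, with 5 of 7 Psma, 5 of 7 Psmb, 4 of 6 Psmc and 8 of 14 Psmd genes. Steady members differed by 0.50 to 0.73. Psmd6 led, at 8.79, 9.15 and 9.17 against 8.04, 8.40 and 8.49 (0.73, SE 0.17, adjusted p = 0.00902), and Pomp, which assembles the barrel, read 9.68, 9.61 and 9.58 against 8.65, 9.09 and 9.03 (0.70, SE 0.15, adjusted p = 0.00528). The median stayed above that of all genes under quantile normalization (0.31) and median centring (0.29), and was 0.53 without replicate 2, but with the interquartile range in the model it was 0.22 and 0 members were steady. The part of array spread in these calls was not tested further.

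**Figure D3:**
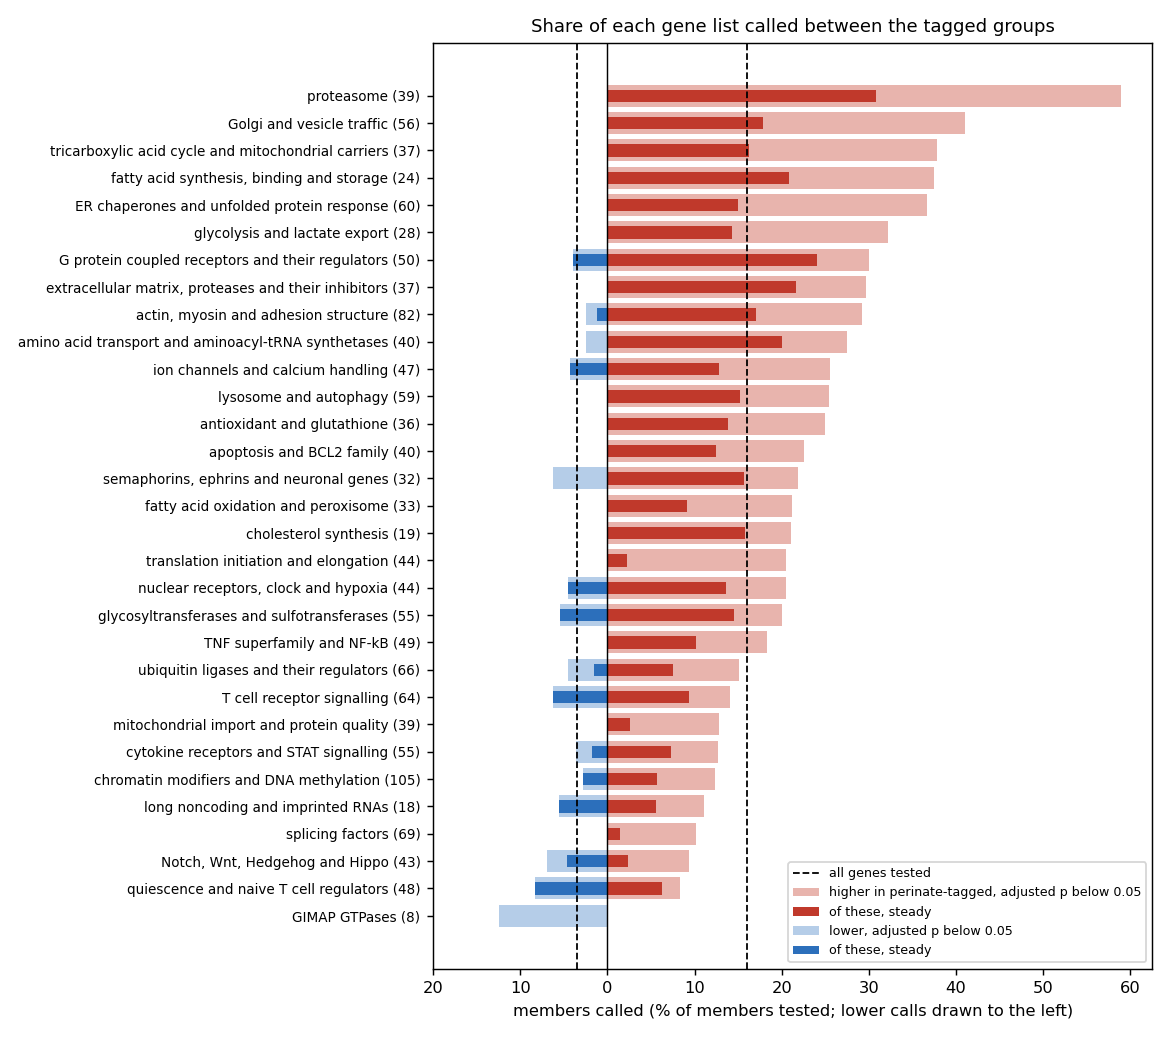
Share of tested members (number in brackets) of each of 31 gene lists that passed an adjusted p of 0.05 between the tagged groups, higher to the right in light red and lower to the left in light blue, with the steady part in dark. Dashed lines mark the shares over all genes tested, 16.0% higher and 3.50% lower. The proteasome list stands farthest to the right.

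The endoplasmic reticulum (ER) folds secreted and membrane proteins, and its stress sensors raise chaperones when folding load rises. In the list of ER chaperones and stress genes, 22 of 60 rose (36.7%), 0 fell and 9 were steady. Pdia6, a disulfide isomerase, read 8.17, 8.61 and 8.67 against 7.75, 7.66 and 7.47 (0.86, SE 0.16, adjusted p = 0.00201). Sdf2l1, a partner of the chaperone BiP, read 9.65, 9.51 and 9.68 against 8.64, 8.84 and 8.85 (0.84, adjusted p = 0.00303). Ssr2 (0.78), of the translocon, and Spcs3 (0.74), of the signal peptidase, were steady too. Hspa5, which encodes BiP itself, did not pass (0.54, adjusted p = 0.0563) and depended on replicate 2, which read 10.77 where replicates 4 and 5 both read 11.49 (adjusted p = 0.00529 without it). Creld2, a chaperone, was steady (0.68, adjusted p = 0.0154).

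The promoters of this list were searched for the ER stress element (CCAAT, then 9 bases of any kind, then CCACG), on both strands, in the promoter windows around each start site of the RefSeq table of GRCm38.p6. It was in 10 of 51 tested list members with a window (19.6%) and in 13 of all 8351 tested genes with a window (0.156%). The list was chosen by function, so its higher share is no result of these arrays. Among the members that rose it was in 3 of 16 (18.8%). The stretches of those 3 genes follow, each upstream of the start site, because they are the list members that both rose and hold the element. Capitals mark the element.
Creld2, chr15:88819500-88819558, plus strand: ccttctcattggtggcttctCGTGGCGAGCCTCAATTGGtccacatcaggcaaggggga
Hsp90b1, chr10:86705618-86705676, minus strand: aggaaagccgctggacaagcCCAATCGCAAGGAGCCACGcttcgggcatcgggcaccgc
Hsp90b1, chr10:86705513-86705571, minus strand: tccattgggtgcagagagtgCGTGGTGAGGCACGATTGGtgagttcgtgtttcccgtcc
Pdia6, chr12:17266471-17266529, plus strand: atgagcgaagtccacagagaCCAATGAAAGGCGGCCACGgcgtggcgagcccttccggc
In Creld2 and in the second Hsp90b1 stretch the element lies on the opposite strand. Hsp90b1, the ER form of Hsp90, differed by 0.67 (adjusted p = 0.0218) and was not steady. Of the other 7 list members with the element 0 passed, among them Hspa5, Calr (0.27) and Canx (0.23). A motif of dividing-cell promoters, TTTGAA, was likewise counted, on both strands. It was in 41.6% of steady higher genes of the reported lists, 16.4% of the other steady higher genes and 1172 of 8351 tested genes with a window. The reported lists include division and replication genes and were chosen by function, so their higher share is no result of these arrays either. The share among the other steady higher genes lay only a little above that of all tested genes.

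From the Golgi onward, 23 of 56 list members rose (41.1%), 0 fell and 10 were steady. Stx11, a fusion protein for release of lytic granules, read 9.51, 9.88 and 9.92 against 8.54, 8.70 and 8.53 (1.18, SE 0.20, adjusted p = 0.000812). Rab27a, which docks granules at the membrane, read 9.43, 9.90 and 9.83 against 8.61, 8.62 and 8.72 (1.07, SE 0.23, adjusted p = 0.0057). The vesicle genes Sytl2 (1.09) and Sytl3 (1.10), whose products bind Rab27, were steady in another list. In the lysosome list 15 of 59 rose (25.4%), 0 fell and 9 were steady. Lgmn, a lysosomal protease, read 9.48, 9.32 and 9.53 against 7.27, 7.95 and 7.55, a difference of 1.86 (SE 0.20, adjusted p = 1.84e-05). Lamp2, a membrane protein of lysosomes, rose by 1.01 (adjusted p = 0.000287) and Grn, the growth factor progranulin that is cut there, by 0.95 (adjusted p = 0.000234). These 3 lysosomal genes passed with the interquartile range as well, while 0 of the 10 steady Golgi genes and 1 of the 9 steady ER genes did.

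Genes of energy and lipid metabolism rose in part. Of 37 tested genes of the tricarboxylic acid cycle and mitochondrial carriers, 14 rose (37.8%), 0 fell and 6 were steady. Idh3a, a dehydrogenase of the cycle, read 9.28, 9.65 and 9.62 against 8.60, 8.66 and 8.42 (0.96, SE 0.17, adjusted p = 0.0013), and Fh1, which makes malate from fumarate, rose by 0.71 (adjusted p = 0.00266). In glycolysis 9 of 28 rose (32.1%), 0 fell and 4 were steady. Pgk1, the first enzyme of the path to make ATP, read 10.57, 10.71 and 10.77 against 9.53, 9.75 and 9.63 (1.05, SE 0.13, adjusted p = 5.98e-05) and was the member of both lists that passed with the interquartile range. In the fatty acid synthesis and storage list 9 of 24 rose (37.5%) and 5 were steady. Plin2, the coat of lipid droplets, read 8.76, 8.87 and 8.93 against 7.20, 7.68 and 7.35 (1.44, SE 0.14, adjusted p = 9.32e-06). Scd2, a desaturase, differed by 1.24 (adjusted p = 0.00424), with Scd2 in untagged cells at 9.68 and 9.66 on replicates 3 and between 10.49 and 10.59 on replicates 4 and 5. Amino acid supply moved too, with 11 of 40 genes higher (27.5%), 1 lower and 8 steady higher. Slc43a1, a carrier of large neutral amino acids, read 8.70, 8.90 and 8.98 against 7.33, 7.32 and 7.38 (1.51, SE 0.14, adjusted p = 7.21e-06), and Asns, asparagine synthetase, rose by 1.17 (adjusted p = 0.000463). Cholesterol synthesis, with 4 of 19 higher (21.1%), fatty acid oxidation, with 7 of 33 (21.2%), and translation factors, with 9 of 44 (20.5%), lay near the 16.0% of all genes. Cytosolic ribosomal protein genes (Rpl and Rps) showed 2 of 66 higher and 1 lower. Mitochondrial ribosomal protein genes (Mrp) showed 20 of 76 higher and complex I genes (Nduf) 16 of 41, with 0 lower in both.

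Among cytokine receptors and their ligands 7 of 55 rose (12.7%) and 2 fell, at a median of -0.02, so the list did not stand above all genes. Il9r, the receptor of the type 2 cytokine IL-9, read 9.59, 9.78 and 9.73 against 7.72, 7.88 and 7.83, a difference of 1.89 (SE 0.19, adjusted p = 9.87e-06). Il17rb, which binds IL-25, read 8.08, 8.33 and 8.33 against 6.71, 6.58 and 6.54 (1.64, SE 0.26, adjusted p = 0.000571). The cytokine genes Il4 (1.17, adjusted p = 4.03e-05) and Ifng (1.04, adjusted p = 0.00999) were steady as well and were named after their values were seen. Il4 read 7.40, 7.65 and 7.58 against 6.39, 6.34 and 6.39. Csf1, the growth factor of macrophages, rose by 1.30 (adjusted p = 0.000538). In the TNF superfamily list, 9 of 49 rose (18.4%) and 5 were steady, among them Tnfsf14 (0.97), Tnfsf11 (0.85), the bone-acting cytokine RANKL, and Ripk3 (1.29), a kinase of necroptosis.

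G protein coupled receptors and their regulators had 15 of 50 genes higher (against 16.0% of all genes) and 12 steady higher, with 2 steady lower. Gpr15, a receptor that guides T cells to the large intestine, read 8.19, 8.56 and 8.57 against 7.07, 6.87 and 7.02 (1.46, SE 0.14, adjusted p = 7.23e-06). Untagged cells read 6.85 and 6.98 for it, at the adult-tagged level, so it was tested through the perinate-tagged mean alone. Cxcr5 (1.24), the receptor of B cell follicles, Ltb4r1 (1.09), for leukotriene B4, and Gpr55 (0.89), for lysophospholipids, were steady, and were named after their values were seen. Among nuclear receptors, clock and hypoxia genes 9 of 44 rose (20.5%). Vdr, the vitamin D receptor, read 8.20, 8.24 and 8.22 against 6.80, 6.94 and 6.89 (1.35, SE 0.17, adjusted p = 9.95e-05), and Egln3, an oxygen sensor that marks HIF factors for decay, read 9.81, 9.58 and 9.41 against 8.26, 8.69 and 8.55 (1.10, SE 0.15, adjusted p = 0.000125). Both passed with the interquartile range. Epas1, the factor HIF-2 alpha, differed by 1.78 (SE 0.49, adjusted p = 0.0211), from 6.75, 7.03 and 7.02 on the adult-tagged arrays. Untagged cells spanned both levels of Epas1, at 6.97 and 7.27 on replicates 3 and between 8.82 and 9.17 on replicates 4 and 5.

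Of 82 actin, myosin and adhesion genes 24 rose (29.3%), 2 fell and 14 were steady higher. Myo1f, a membrane-linked myosin, read 10.00, 9.91 and 9.81 against 8.24, 8.60 and 8.32 (1.52, SE 0.14, adjusted p = 4.98e-06). Crip2 (1.60), a LIM domain protein, and Rhoc (1.15), a GTPase of cell movement, passed with the interquartile range like Myo1f. In the list of glycosyltransferases and sulfotransferases 11 of 55 rose (against 16.0% of all genes) and 3 fell. The rises included the fucosyltransferase Fut7 at 7.48, 7.35 and 7.51 against 6.65, 6.44 and 6.57 (0.89, SE 0.12, adjusted p = 0.000122), Gcnt1 at 1.41, B4galt5 at 1.36 and Chst2 at 1.33. In the apoptosis list 9 of 40 rose (22.5%) and 0 fell, with Bak1, a protein that opens the mitochondrial membrane, at 10.48, 10.45 and 10.43 against 9.05, 9.41 and 9.19 (1.24, SE 0.14, adjusted p = 2.72e-05). Matrix and protease genes had 11 of 37 higher (29.7%), with Lamc1 (1.12) and Nid2 (1.08), parts of the basement membrane, and the protease Adam8 (1.00).

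Signalling and chromatin lists held genes moving both ways, where 16.0% of all genes rose and 3.50% fell. The share of rises lay below that of all genes in each list of this paragraph. In T cell receptor signalling 9 of 64 rose (14.1%) and 4 fell, all 4 steady. The falls, named after their values were seen, were Lat, the scaffold at the receptor, which read 11.42, 11.27 and 11.28 against 11.72, 11.79 and 11.64 (-0.39, adjusted p = 0.043), its adaptor Grap2 (-0.69), the kinase Txk (-0.66) and Trat1 (-0.52). Rises included the adaptor Nck2 (1.11), Sh2d1a (0.88), the adaptor SAP, and Ubash3b (0.79), a phosphatase that damps the receptor. In the list of quiescence and naive T cell regulators 4 of 48 rose and 4 fell. The median was -0.18 and, after median centring, -0.40, against 0.12 and -0.09 over all genes. Bach2, Foxp1 (-0.71, adjusted p = 0.0033), Pik3ip1 (-0.96, adjusted p = 0.00275), a brake on PI3 kinase, and Tsc22d3 made up the falls, while Klf12 read 8.66, 8.29 and 8.45 against 6.68, 7.43 and 6.94 and rose (1.45, SE 0.23, adjusted p = 0.000571). Chromatin genes had 13 of 105 higher (12.4%) and 3 lower. Hmgn5 (1.38), a nucleosome binder, and Nsd2 (1.21), which methylates histone H3, rose, and Kmt2a, Kmt2c (-0.43) and Kmt2d, the 3 falls, belong to another family of H3 methyltransferases. Kmt2a read 10.72, 10.73 and 10.67 against 11.34, 11.33 and 11.30. GIMAP GTPases showed 0 of 8 higher and 1 lower.

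On a scale where the adult-tagged mean is 0 and the perinate-tagged mean is 1, the mean of the 6 untagged arrays had a median position of 0.40 over the 888 steady higher genes. It lay nearer to the adult-tagged mean in 560 genes, nearer to the perinate-tagged mean in 280, beyond the latter in 7 and beyond the adult-tagged mean in 41. For the 265 steady lower genes the median position was 0.40 as well, with 147 nearer to the adult-tagged mean, 88 nearer to the perinate-tagged mean, 2 beyond it and 28 beyond the adult-tagged mean. These positions share the values that made the genes steady and are a description. The untagged arrays did not lie together. Both replicates 3 had a median position of 0.26 over the higher genes and 0.23 over the lower ones, against 0.48 and 0.47 for replicates 4 and 5, a split chosen after seeing the data. Adult-tagged arrays carry the numbers 1, 2 and 3 and perinate-tagged arrays 2, 4 and 5. An effect that goes with the number therefore cannot be fully told apart from the tagged contrast, and was not tested.

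**Figure D4:**
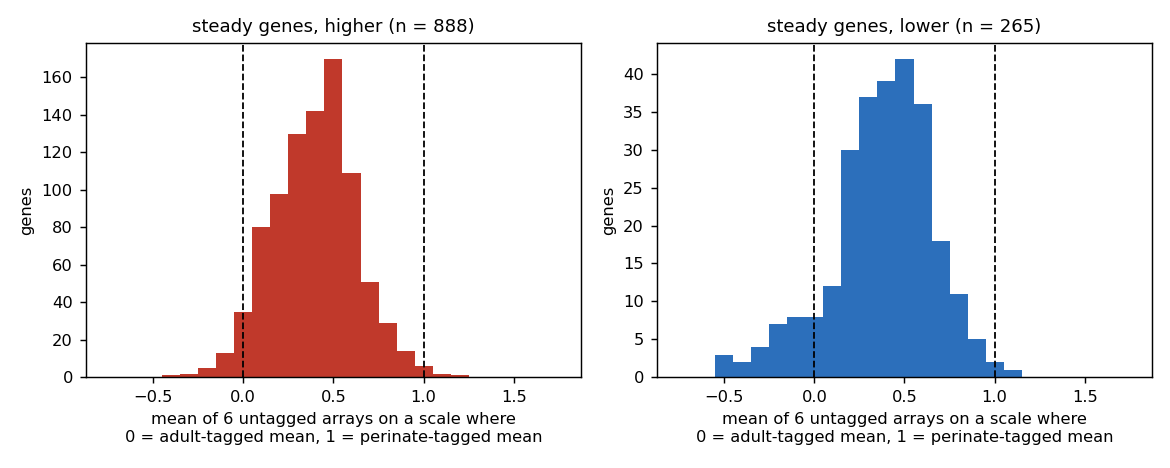
Number of steady genes (y) by the position of the mean of the 6 untagged arrays (x), where 0 is the adult-tagged mean and 1 the perinate-tagged mean, for 888 higher (red) and 265 lower (blue) genes. Most genes lie between the dashed lines, at a median of 0.40.

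Whether the difference between the tagged groups exceeded that between untagged cells of the same treatments was tested as a difference of differences. It passed for 444 genes upward and 62 downward, 4.29% and 0.599% of those tested. The split was 409 and 156 after quantile normalization and 368 and 171 after median centring. Deviations of untagged arrays of the same number correlated at 0.63, 0.14 and 0.47 for numbers 3, 4 and 5. Those of unlike numbers 4 and 5 correlated at 0.27 and 0.30, and those of number 3 with numbers 4 and 5 at -0.64 to -0.28. Untagged number 3 thus stood apart from numbers 4 and 5, but pairing by number was not clear. Tagged and untagged arrays of the same number correlated at -0.11 to 0.29. With a replicate block 245 genes passed upward and 29 downward. Among steady genes outside the reported lists it passed in the same direction for 255 of 678 higher and 45 of 253 lower. Among the 15 largest rises it passed for 13, all but Cxcl10 (2.78, adjusted p = 0.109) and Ttc39c (1.85, adjusted p = 0.172). Among the 15 largest falls it passed for 7. Both contrasts use the tagged arrays, so the second is not a separate observation of the first. Over all genes it passed for 26.8% of the 1658 rises. By list it passed for 9 of the 15 rises in the G protein coupled receptor list, 7 of the 24 in the actin list, 5 of the 15 in the lysosome list and 2 of the 23 in the proteasome list.

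Thymic Tregs of 4-day-old and 5-week-old males give the same genes in animals and arrays that the spleen comparison did not use. Between them 18.5% of 10650 tested genes were higher and 5.84% lower in the perinate, 1967 and 622 genes. That split depended on the scaling, with 1223 and 1049 after quantile normalization, 1178 and 1631 after median centring and 1128 and 1395 with the interquartile range in the model. The thymus arrays differed in spread as well, at 2.82, 2.08 and 2.68 in adults and 3.03, 3.00 and 3.06 in perinates, and the counts shared with spleen below were not taken under another scaling. Of the 638 steady higher spleen genes outside the reported lists that were tested in thymus, 234 were higher in the perinate thymus and 41 lower. Of 243 steady lower ones 50 were lower and 2 higher. Asns was higher in both tissues (1.36, adjusted p = 0.000572, in thymus) and so was Slc43a1 (1.69, adjusted p = 0.000664), and Cyria (-1.21, adjusted p = 0.00596) and Nr1d1 (-1.20, adjusted p = 0.00145) were lower in both. Myo1f went the other way, at -1.55 in thymus (adjusted p = 0.000662), as did Gcnt1 (-1.67, adjusted p = 0.00148) and Chst2 (-2.09, adjusted p = 0.000114). Lamp2 (-0.29, adjusted p = 0.0899), Plin2 (0.30, adjusted p = 0.168) and Il9r (-0.24, adjusted p = 0.194) did not pass there. Tissue, sex and sorter differ between spleen and thymus, and no tamoxifen is given for the thymus mice. These cannot be told apart.

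Markers of other cells were low with few exceptions. Of 21 myeloid markers on the array 4 were bright enough to test. The mean of all 21 was 6.25, 6.43 and 6.61 on the perinate-tagged arrays and 6.27, 6.20 and 6.27 on the adult-tagged ones, with 5 markers higher and 1 lower on every perinate-tagged array than on any adult-tagged one. Mpeg1, a pore-forming protein of macrophages, was not bright enough to test and read 6.29, 7.28 and 7.40 against 5.59, 5.88 and 5.65. C1qb, of the complement system, read 6.98, 7.38 and 8.06 against 6.81, 7.02 and 6.69 (0.64, adjusted p = 0.0518). Without perinate-tagged replicate 2, 3 of the 4 tested myeloid markers passed higher. The macrophage and neutrophil marker Lyz2 lay between 6.04 and 6.37, and Cd68 (0.54, adjusted p = 0.0276) and Fcer1g (0.64, adjusted p = 0.0497) were higher in perinate-tagged cells. By the same count of groups that did not overlap, 1 B and plasma cell marker was higher and 4 were lower. Dendritic cell markers had 1 higher and 2 lower, and stromal and endothelial markers 2 higher and 3 lower. Erythroid and platelet markers had 0 higher and 3 lower, immature thymocyte markers 0 and 2, and natural killer markers 1 and 1. Of 13 B and plasma cell markers 3 were tested. Cd79b, a signalling chain of the B cell receptor, was higher (0.66, adjusted p = 0.00476), while Cd79a lay between 5.07 and 5.56 and Ms4a1 between 4.94 and 5.67 on all 6. Among 13 dendritic cell markers Cd74, the invariant chain, read 8.55, 7.92 and 8.26 against 6.65, 7.05 and 7.01 (1.34, adjusted p = 0.00672), while H2-Aa lay between 5.36 and 6.24 and Itgax between 5.92 and 6.27. Epcam, an epithelial marker, was higher (1.07, adjusted p = 0.00502), with the keratin Krt18 (0.50, adjusted p = 0.015) but not Krt8 (-0.35, adjusted p = 0.124). The natural killer markers Klrb1c and Ncr1 lay between 3.87 and 5.36, and Gzma, which effector T cells also make, was higher (1.70, adjusted p = 0.000477). These are bulk values, and the part of other cells in the differences above was not tested.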

How the data were processed

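RNA of double-sorted cells was amplified and measured on Affymetrix arrays (Mouse Gene 1.0 ST type), per the labels. The values are the authors' deposited intensity values on a linear scale (6.81 to 18850), made with Affymetrix Power Tools by RMA, per the submitters' processing notes; versions are not given in the sources used here. They were turned to log2. Of 24922 probe sets 21425 had 1 symbol, 1399 several and 2098 none. For each of 19752 genes, of which 921 had several probe sets, the probe set of highest mean was used, and a gene was tested where at least 1 group mean reached 132.7, the median intensity (7.05 on the log2 scale). limma 3.58.1 in R 4.3.3 fitted the 12 spleen arrays together, 1 coefficient per group, two-sided, with Benjamini-Hochberg adjustment over 10350 genes at 0.05; the 6 thymus arrays were fitted apart. The number of arrays limits the precision. The scripts were tested on simulated data.

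The named genes are the 15 largest steady differences in each direction whose tagged groups do not overlap, outside the reported lists and without predicted genes, small RNAs, receptor segments and Y-linked genes. To these were added up to 4 steady members of each list, the markers, and the 6 largest calls present only with or only without perinate-tagged replicate 2. The comparison and its lists were chosen with earlier results of these data known. The tagged groups share only the replicate number 2 (correlation of deviations 0.02), so pairing by number could not be tested for them. Untagged arrays of the same number correlated at 0.63, 0.14 and 0.47 for numbers 3, 4 and 5. For number 4 this was no higher than between unlike numbers 4 and 5 (0.27 and 0.30). Untagged arrays of number 3 correlated at -0.64 to -0.28 with those of numbers 4 and 5. Alternatives covered normalization, filter, probe set choice, prior, array weights, array spread, a replicate block and left-out arrays.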

Additional observations from a re-analysis of the deposited data

Results flagged for a closer look

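The difference between the tagged groups differed from that between untagged cells in 506 genes by the interaction term. Among the named genes the difference of differences was 2.32 for Mastl, 2.07 for Dnase1l3, 1.74 for H1f5, 2.25 for Gna15, 2.13 for Actg2, 2.22 for Spag5 and 1.96 for Cip2a. It was 1.98 for Trpm6, 1.75 for Pparg, 1.94 for Ccrl2, 1.80 for Ryk, 1.94 for Car5b and 2.04 for Hrh4. It was below 0 for Cyria (-1.20), Airn (-1.13), Znrf3 (-1.12), Fgf13 (-1.17), Tgfbr3 (-1.02), Ntn4 (-1.17) and Tmem176a (-1.0). In the thymus 4 of the 15 largest rises went the opposite way in the perinate, Cxcl10 by -1.65, Gna15 by -1.18, Ttc39c by -2.30 and Car5b by -0.98. Whether spleen and thymus differ for these genes was not tested.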

How the results depend on the processing

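No named gene that passed in the full data changed the sign of its difference under the alternatives run. Genes called only without perinate-tagged replicate 2 were outside this check. The majority of calls went from higher to lower under median centring (in thymus also with the interquartile range in the model). The 2020 calls between tagged groups were 1261 with the upper quartile filter (fewer genes tested), 5904 with array weights, 376 with the interquartile range as a covariate, 3371 in the 6 tagged arrays alone, and 379 at a difference of at least 1. With a replicate block they were 655, although the numbers do not pair the tagged groups. The split was 1065 higher and 896 lower with quantile normalization (1961 calls), 913 and 1368 with median centring (2281) and 1964 and 209 with centring on all genes (2173, chosen after seeing the data). Leaving out 1 array gave 906 to 2511 calls, with 906 without adult-tagged replicate 1, 1088 without adult-tagged 3, 1075 without perinate-tagged 4 and 943 without perinate-tagged 5. The 506 differences of differences were 316 with the upper quartile filter, 1077 with array weights and 274 with a replicate block, and 279 to 679 with 1 array left out. The 2589 thymus calls were 1346 with the upper quartile filter and 707 to 4388 with 1 array left out. Of 1153 steady genes 343 also passed with the interquartile range and 748 with any single tagged array left out. Of 138 named genes 84 no longer passed with the interquartile range and 44 with the replicate block. Array weights were not run for the thymus, where they did not converge. Other causes were not tested.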

Other observations

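Some steady genes that belong to none of the lists described were named after their values were seen. Muc20, a membrane mucin, read 8.74, 8.44 and 8.02 in perinate-tagged cells and 6.42, 6.36 and 6.74 in adult-tagged cells, a difference of 1.89 (SE 0.22, adjusted p = 3.32e-05 by limma), with untagged means of 6.87 and 6.71. Tent5c, a poly(A) polymerase, read 10.31, 10.17 and 10.14 against 10.88, 10.93 and 10.92 (-0.70, adjusted p = 0.000571 by limma), and the mean of 10.92 in untagged cells after adult treatment lay at the adult-tagged level. Stra6, a receptor for the vitamin A carrier, read 9.11, 8.74 and 8.79 against 9.59, 9.89 and 9.69 (-0.84, adjusted p = 0.00206 by limma). All these passed with the interquartile range in the model.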
